A study of Homo sapiens with 8 samples.

Results

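The CLK, SRPK and related splicing kinases examined here are 8 genes: CLK1, CLK2, CLK3 and CLK4, which encode the CDC-like kinases; SRPK1 and SRPK2, which encode the SR protein kinases; PRPF4B, the spliceosomal kinase also called PRP4K; and DYRK1A, a dual-specificity kinase found in nuclear speckles. They were taken by gene symbol, and all 8 were found among the 17912 genes measured. RNA was sequenced from NKM-1 cells, which are an established human line of myeloid leukemia with a genotype labelled as wild type. The cells were exposed for 48 h to SF153 at 30 uM, a compound that the series title presents as an inhibitor of splicing factors carrying a UHM domain, or to the solvent DMSO. There were 4 libraries per treatment, 2 in each of 2 batches, and a library is named by its batch and then its number within the batch (SF153 2.1 belongs to batch 2). All libraries come from 1 cell line, and nothing in the labels says that libraries of the same treatment and batch came from separate cultures. Both libraries of each treatment and batch share a leading number in their names and may be libraries of 1 culture. The p-values therefore set differences only against the spread among these libraries, and that spread may be technical.

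The CLKs and SRPKs phosphorylate serine residues in the arginine-serine repeats of SR proteins and other spliceosomal proteins. SRPKs act largely in the cytoplasm, where phosphorylation lets SR proteins be carried into the nucleus. CLKs act in the nucleus and release SR proteins from speckles to sites of splicing. Phosphatases of the PP1 and PP2A families reverse the reaction, so that splicing factors pass through a cycle of phosphorylation and dephosphorylation. PRPF4B acts on proteins of the tri-snRNP, and DYRK1A on splicing factors, transcription regulators and a complex that holds cells out of the cell cycle. CLK1 and CLK4 mRNA is known to be partly held in the nucleus with introns left in, and a gene-level value counts such RNA together with mature mRNA. The libraries were made from total RNA after removal of ribosomal RNA, so nuclear and unspliced RNA was sampled as well.

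The CLKs are also called LAMMER kinases after a stretch of their catalytic domain. The coding bases of that stretch are shown because it names the family, and because reads must differ between paralogs for each gene to be measured on its own. Each line gives 30 bases read 5′ to 3′ on the coding strand from GENCODE release 29 transcripts, with capitals at the 12 positions where the 4 genes are not all the same.
CLK1: gagcaTTtAgCAatgatggaAAGGatTCtT
CLK2: gagcaTCtAgCCatgatggaAAGGatCTtG
CLK3: gagcaCCtGgTGatgatggaGAAGatCCtA
CLK4: gagcaCCtGgCAatgatggaACGAatATtA
The stretches lie within single exons on GRCh38, at chr2:200854651-200854680 (minus strand) for CLK1, chr1:155264256-155264285 (minus) for CLK2, chr15:74628619-74628648 (plus) for CLK3 and chr5:178605338-178605367 (minus) for CLK4. Between any pair of the 4 genes, 5 to 9 of the 30 bases differed.

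Little sequence was shared between the kinases over whole transcripts. Of the distinct runs of 31 bases in the longest coding transcript of CLK1, 0.20% also occurred in another gene, and that gene was CLK4. SRPK1 and SRPK2 shared none with each other. More was shared with processed pseudogenes that were not analysed here, namely 15.0% of the CLK2 runs with CLK2P1, 5.998% of the PRPF4B runs with AL133412.1 and 4.88% of the SRPK2 runs with SRPK2P. The values of these 3 genes are less certain for that reason. Many annotated transcripts are not coding. GENCODE release 29 lists 15 transcripts of CLK1, of which 8 are of the retained intron type and 4 are coding. For CLK4 it lists 7 retained intron transcripts of 15 and for CLK3 8 of 27, whereas CLK2 has 0 of 7.

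The genes lie on different chromosomes apart from SRPK1 (chr6:35832966-35921342, minus strand) and PRPF4B (chr6:4021267-4064983, plus). The others span chr2:200853009-200864744 (CLK1, minus), chr1:155262868-155278491 (CLK2, minus), chr15:74598500-74645414 (CLK3, plus), chr5:178602664-178630615 (CLK4, minus), chr7:105110704-105399308 (SRPK2, minus) and chr21:37365573-37526358 (DYRK1A, plus), by GENCODE release 29 on GRCh38. The annotated span of CLK3 overlaps EDC3, which encodes an activator of mRNA decapping, by 14857 bases on the opposite strand. The library protocol keeps strand, but the sources used here do not give whether counting made use of it. EDC3, named for this overlap, had a signal of 25.4 ± 3.33 in SF153 and 26.5 ± 3.09 in DMSO (SD, n = 4), with a log2 difference of -0.06 and a limma adjusted p of 0.705. SRPK2 overlaps KMT2E by 3658 bases on the opposite strand. KMT2E had 140.1 ± 4.79 in SF153 and 147.8 ± 6.21 in DMSO (-0.08, limma adjusted p = 0.367), well above SRPK2 at 40.7 and 40.5. PRPF4B overlaps FAM217A, which was not among the genes analysed here, by 15550 bases on the opposite strand.

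Values were taken as a TPM-type signal, which is scaled to transcript length and to the library. The deposited tables are named as both CPM and TPM, so scaling to length was assumed. The 8 columns summed to between 828381 and 1027119, so they are not plain TPM, and the depth of each library is unknown. Both lowest sums (828381 and 835840) were of the SF153 libraries of batch 2, and the other libraries had 990815 or more. Composition differed within treatments. Mitochondrially encoded genes took 9.17% to 16.8% of the signal in SF153 libraries, with both highest shares in batch 2, against 9.38% to 9.63% in DMSO libraries. Small RNA genes took 32.9% to 47.0% in SF153 libraries, with both lowest shares in batch 2, and 33.9% to 38.5% in DMSO libraries. Of 14 myeloid markers 12 were among the genes analysed here, with a summed signal of 1264 to 1542 in SF153 and 1714 to 1942 in DMSO. Single markers went both ways. MPO averaged 469.6 ± 57.4 in SF153 and 740.3 ± 22.4 in DMSO (log2 difference -0.66, limma adjusted p = 0.000433). Also called lower by limma were PRTN3 (-1.23, adjusted p = 0.00398), LYZ (-0.98, 0.00167), CEBPA (-0.76, 0.000795) and CSF1R (-0.49, 0.00233). CD33 (0.40, limma adjusted p = 0.0063) and ITGAM (0.42, limma adjusted p = 0.0182) were called higher. These calls are with the authors' values, and some changed under the other scalings and the trend removal given further on. MPO was called higher after quantile normalization (0.42, limma adjusted p = 0.00127). After trend removal MPO (-0.16), LYZ (-0.42) and CSF1R (-0.18) were not called. CSF1R was also not called without mitochondrial and small RNA genes (-0.15). PRTN3, CEBPA, CD33 and ITGAM kept their calls in each of these settings. Of all genes tested, 24.3% were called lower and 13% higher. These single markers were named after their values were seen. Lymphoid markers summed to 6.13 to 17.4 in SF153 and 25.9 to 32.4 in DMSO, with 3 of 9 analysed, led by CD79A. Epithelial and stromal markers summed to 41.3 to 46.3 in SF153 and 37.8 to 46.2 in DMSO, with 2 of 9 analysed. Of 8 erythroid and megakaryocyte markers 0 were among the genes analysed here. The part of these shifts in the results was not tested.

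With the authors' values, the splicing kinase mRNAs differed little between SF153 and DMSO. CLK3 was called higher, by 1.24-fold, and the other 7 genes did not pass the threshold; under other scalings, given further on, 2 to 6 of the 8 were called higher. In bulk RNA, fewer cells of a kind and less RNA per cell cannot be told apart. The test was limma on log2(signal + 1), fitted to the 15542 genes whose mean signal reached 1, and calls were made where the p after Benjamini-Hochberg adjustment was below 0.05. All 8 kinases passed that filter. Among the kinases, 1 was called higher and 0 lower, where 13% of all genes tested were called higher and 24.3% lower (37.2% in either direction). By limma, 2 of the 8 had an unadjusted p below 0.05. The median log2 difference was 0.06 for the 8 genes and -0.03 for all genes. In absolute size the median difference was 0.12 for the kinases and 0.33 for all genes, and 7 of the 8 kinases lay within the interquartile range of all genes, from -0.41 to 0.27.

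Because most kinases were not called, the size of change that the libraries could still hold is given by the intervals. The 95% intervals of the 8 fold changes ran from a lowest bound of 0.718 for SRPK1 to a highest bound of 1.42 for CLK3. A 2-fold change in either direction was outside the interval of each of the 8 genes with the authors' values. The standard errors lay between 0.07 and 0.12 on the log2 scale.

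**Figure D1:**
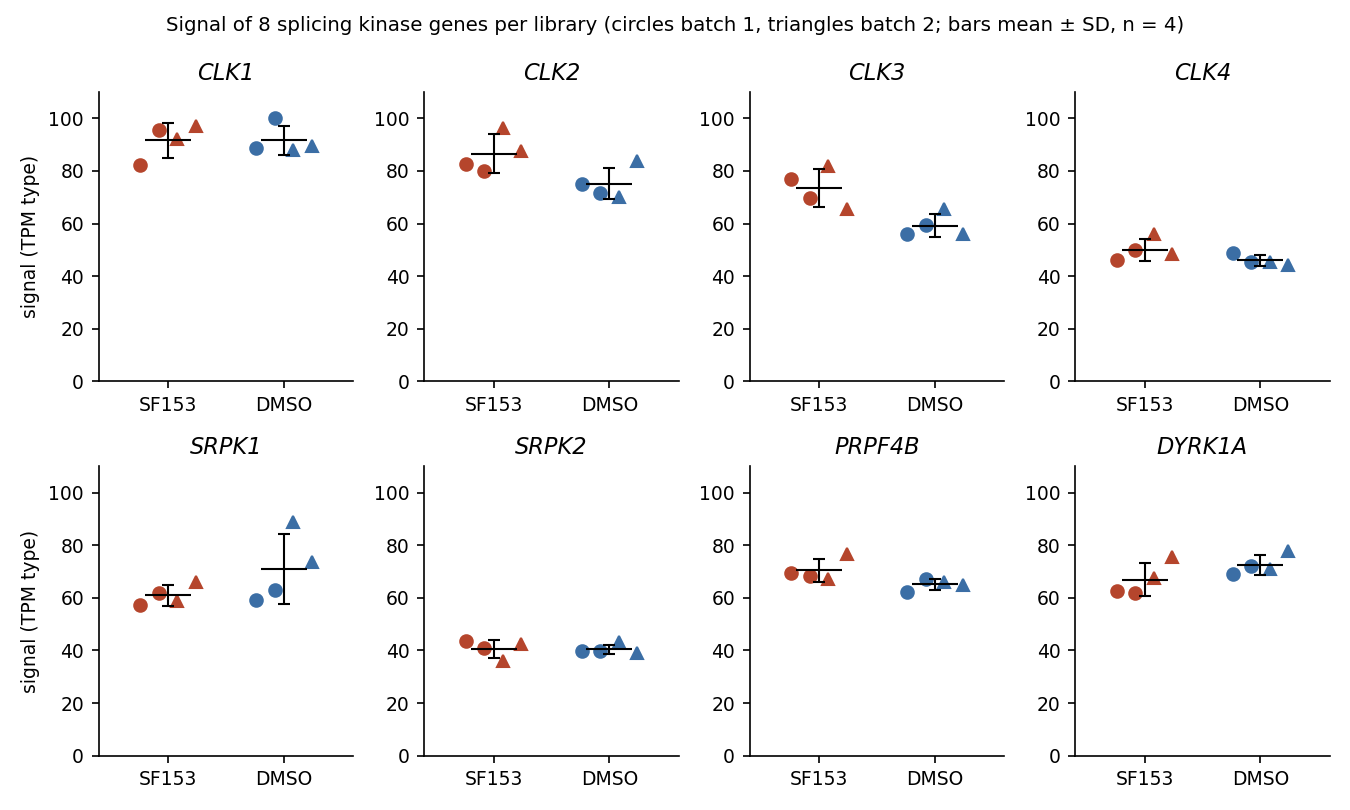
Signal (TPM type, linear axis from 0) of each splicing kinase gene in each library, with SF153 left and DMSO right, circles for batch 1, triangles for batch 2 and bars for mean ± SD (n = 4). Values of both treatments overlap for 7 genes; for PRPF4B the lowest SF153 library (67.1) lies just above the highest DMSO library (66.96).

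CLK1, the best studied of the CLKs, had the highest mean level of the 8 genes in both treatments, although it exceeded CLK2 in only 2 of 4 SF153 libraries. Its signal was 82.2, 95.6, 92.2 and 96.9 in SF153 libraries 1.1, 1.2, 2.1 and 2.2, against 88.6, 100.01, 88.1 and 89.5 in DMSO libraries 1.1, 1.2, 2.1 and 2.2. SF153 1.1 was the lowest and DMSO 1.2 the highest, and the groups overlapped throughout. CLK1 averaged 91.7 ± 6.66 in SF153 and 91.6 ± 5.66 in DMSO. The log2 difference was 0.00 ± 0.08 (SE, limma adjusted p = 0.991), with a fold change between 0.888 and 1.13 by its 95% interval. Of all genes, 0.219% had a smaller absolute difference than CLK1.

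CLK2, which phosphorylates SR proteins and also acts in insulin signalling, had 82.5, 79.8, 96.3 and 87.7 in the SF153 libraries, in the same order, and 74.9, 71.8, 70.3 and 83.6 in the DMSO libraries. DMSO 2.2 alone reached into the SF153 range. The log2 difference was 0.20 ± 0.08 (SE, limma adjusted p = 0.0904) and was positive in both batches, at 0.14 in batch 1 and 0.26 in batch 2. CLK2 was called without DMSO 2.2 (0.25, limma adjusted p = 0.048), and with only the SF153 libraries of batch 2 against all DMSO libraries (0.29, 0.0454).

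CLK3, a CLK known to be abundant in testis, had 76.9, 69.8, 82.0 and 65.4 in the SF153 libraries and 56.1, 59.3, 65.5 and 56.0 in the DMSO libraries. Only SF153 2.2 and DMSO 2.1 touched, at 65.39 and 65.47, and the other SF153 libraries lay above all DMSO libraries. CLK3 averaged 73.5 ± 7.36 in SF153 and 59.2 ± 4.46 in DMSO (SD, n = 4). The log2 difference was 0.31 ± 0.09 (SE, limma adjusted p = 0.0243), which is a fold change of 1.24 with a 95% interval of 1.07 to 1.42. It was 0.34 in batch 1 and 0.27 in batch 2. The call was lost in 5 of the 8 fits that left out 1 library, namely without SF153 1.1, SF153 2.1, DMSO 1.1, DMSO 1.2 or DMSO 2.2, where the log2 difference was 0.25 to 0.31 and the limma adjusted p 0.0518 to 0.0648. It was also lost after the libraries of each treatment and batch were averaged (0.31, limma adjusted p = 0.0734). Neither batch alone, with fewer libraries, called CLK3 (limma adjusted p = 0.0587 in batch 1 and 0.251 in batch 2). Against all DMSO libraries, CLK3 was called with only the SF153 libraries of batch 1 (limma adjusted p = 0.0481). With only those of batch 2 it was not (0.30, limma adjusted p = 0.0772).

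CLK4, the closest paralog of CLK1, was the lowest of the CLKs. It had 46.0, 49.9, 55.9 and 48.4 in the SF153 libraries and 48.9, 45.2, 45.4 and 44.4 in the DMSO libraries. The groups overlapped, with SF153 2.1 highest. The log2 difference was 0.12 ± 0.08 (SE, limma adjusted p = 0.276), and the 95% interval of the fold change was 0.960 to 1.23.

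Summed over the 4 CLKs, the signal was 287.6 to 326.4 in the SF153 libraries and 268.5 to 276.4 in the DMSO libraries. The sum did not overlap between treatments, although each single CLK did. It averaged 301.9 ± 16.9 in SF153 and 271.9 ± 3.71 in DMSO, a ratio of means of 1.11; for single genes, 36.8% of all did not overlap. The sum of SRPK1 and SRPK2 overlapped, at 94.7 to 108.2 in SF153 and 98.6 to 131.7 in DMSO (ratio 0.911), and so did that of all 8 genes, at 520.5 to 558.8 in SF153 and 498.4 to 537.9 in DMSO (ratio 1.04). These sums are descriptions of genes chosen with earlier results known and were not tested.

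SRPK1, the SR protein kinase that primes SRSF1 for nuclear import, had 57.1, 61.7, 58.9 and 66.0 in the SF153 libraries and 59.0, 62.9, 88.7 and 73.8 in the DMSO libraries. Both DMSO libraries of batch 2 stood above the other 6 libraries, which lay together. SRPK1 averaged 60.9 ± 3.87 in SF153 and 71.1 ± 13.3 in DMSO, the widest spread of any of the 8 genes. As a log2 difference this was -0.20 ± 0.12 (SE, limma adjusted p = 0.223). It was -0.04 in batch 1 and -0.37 in batch 2, and the difference between batches did not pass in a limma fit with an interaction term (-0.33, limma adjusted p = 0.556), where 1.15% of all genes were called. None of the other 7 kinases passed that interaction test, with limma adjusted p of 0.756 to 0.960.

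SRPK2, which is rich in brain and phosphorylates the same class of substrates, had 43.6, 41.0, 35.8 and 42.3 in the SF153 libraries and 39.6, 40.0, 43.1 and 39.2 in the DMSO libraries. The groups overlapped fully, with SF153 2.1 lowest. SRPK2 averaged 40.7 ± 3.39 in SF153 and 40.5 ± 1.76 in DMSO. SF153 minus DMSO, on the log2 scale, was 0.00 ± 0.08 (SE, limma adjusted p = 0.969), with a fold change between 0.884 and 1.14 by its 95% interval.

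PRPF4B, needed for assembly of the active spliceosome, had 69.6, 68.2, 67.1 and 76.7 in the SF153 libraries and 62.3, 66.96, 66.1 and 64.9 in the DMSO libraries. It was the only member whose groups did not overlap, by a margin far below the spread within groups; groups did not overlap for 36.8% of all genes. On the log2 scale the groups differed by 0.11 ± 0.07 (SE, limma adjusted p = 0.235), and the 95% interval of the fold change was 0.971 to 1.20.

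DYRK1A, encoded on chromosome 21 and sensitive to gene dose, had 62.6, 61.6, 67.7 and 75.4 in the SF153 libraries and 69.0, 72.0, 70.8 and 77.9 in the DMSO libraries. The 3 lowest values were SF153 libraries, but SF153 2.2 exceeded 3 of the 4 DMSO libraries. As a log2 difference this was -0.12 ± 0.08 (SE, limma adjusted p = 0.295), with -0.18 in batch 1 and -0.06 in batch 2.

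**Figure D2:**
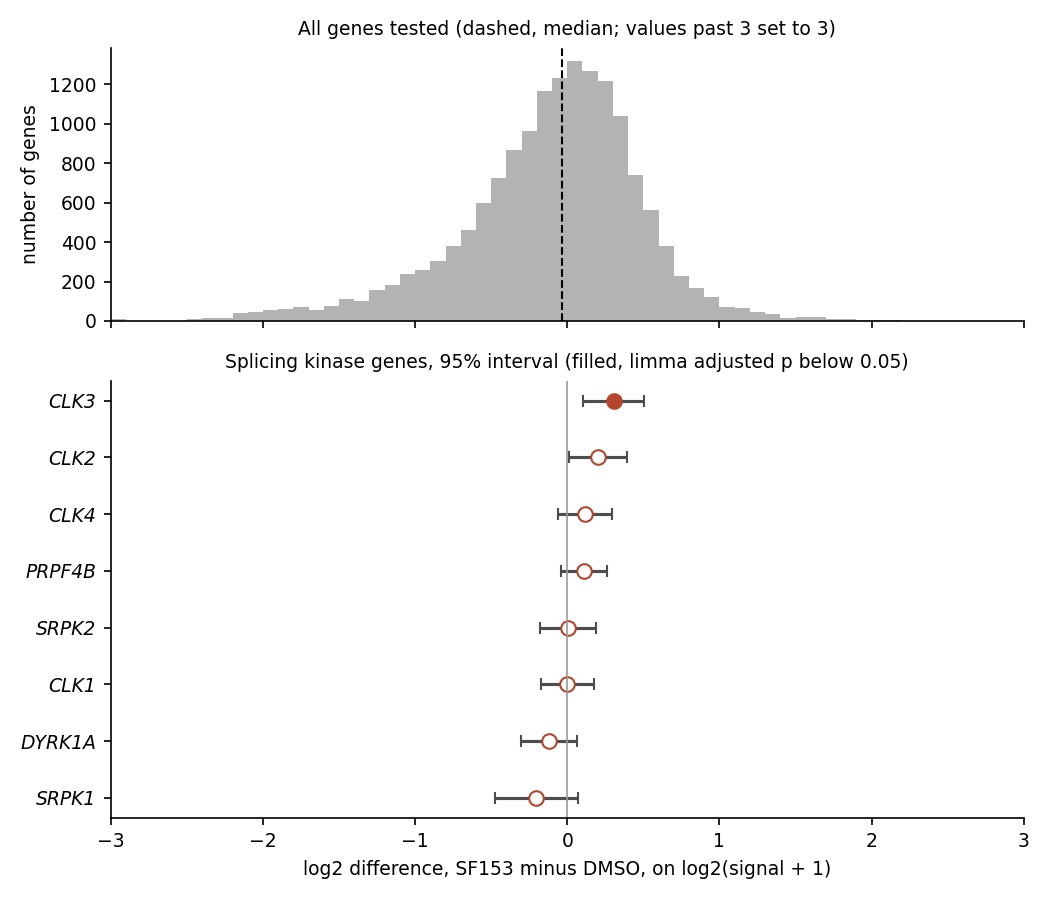
The upper panel is a histogram of log2 differences (SF153 minus DMSO, on log2(signal + 1)) of the 15542 genes tested, with the number of genes per bin on the vertical axis; the lower panel gives the 8 splicing kinase genes with 95% intervals on the same scale. The kinases lie near the centre of the distribution, from -0.20 for SRPK1 to 0.31 for CLK3, and CLK3 alone is filled as called.

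The order of the levels, on a signal assumed to be scaled to transcript length, differed in part between the treatments. In SF153 it was CLK1, CLK2, CLK3, PRPF4B, DYRK1A, SRPK1, CLK4 and SRPK2, and neighbours overlapped in their library ranges down to SRPK1. In DMSO it was CLK1, CLK2, DYRK1A, SRPK1, PRPF4B, CLK3, CLK4 and SRPK2, with neighbours from CLK2 to CLK3 overlapping and CLK1 above CLK2 in each of 4 libraries. CLK4 and SRPK2 were separate from each other and from the genes above them in both treatments. CLK3 exceeded PRPF4B in 3 of 4 SF153 libraries, whereas PRPF4B exceeded CLK3 in 4 of 4 DMSO libraries. All 8 genes were well expressed, with a level percentile among the genes tested of 81.5 for SRPK2 up to 93.8 for CLK1.

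Ratios of paralogs within a library do not depend on how libraries are scaled to each other. The CLK1 to CLK4 ratio was 1.84 ± 0.15 in SF153 and 2.00 ± 0.17 in DMSO (SD, n = 4; exact two-sided permutation p = 0.2, adjusted p = 0.343 over 3 ratios). The CLK2 to CLK3 ratio was 1.18 ± 0.11 in SF153 and 1.28 ± 0.18 in DMSO (exact permutation p = 0.429, adjusted p = 0.429), and the SRPK1 to SRPK2 ratio 1.505 ± 0.14 in SF153 and 1.75 ± 0.27 in DMSO (exact permutation p = 0.229, adjusted p = 0.343). None passed, and the smallest p that 70 splits of 4 against 4 libraries allow is 0.0286 before adjustment. After adjustment over the 3 ratios, a ratio at that p could not have passed by itself. The ranges of each ratio overlapped between treatments. The SRPK1 to SRPK2 ratio ranged from 1.31 to 1.64 in SF153 and from 1.49 to 2.06 in DMSO.

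The count of kinases called depended on the scaling between libraries. With the authors' values 1 of 8 was called higher. Median-of-ratios scaling, which moved the median of all genes by 0.06, gave CLK2 and CLK3, where 16.5% of all genes were called higher and 21.2% lower. Quantile normalization, which moved it by 0.10, gave CLK2, CLK3, CLK4 and PRPF4B, where 20.8% of all genes were called higher and 18.1% lower. Removal of mitochondrial and small RNA genes before rescaling moved it by 0.30 and gave all but SRPK1 and DYRK1A, where 35% of all genes were called higher and 13.8% lower. CLK3 had the largest difference of the 8 genes under each of these scalings (0.38, 0.48 and 0.64) and stood at a percentile of 78.4 to 82.3 among the differences of all genes. SRPK1 had the lowest in each, and its sign turned to 0.13 without mitochondrial and small RNA genes. DYRK1A turned to 0.07 after quantile normalization and 0.22 without mitochondrial and small RNA genes. Both signs moved with the median of all genes, which was 0.07 after quantile normalization and 0.26 without those genes; without those genes SRPK1 stood at a percentile of 40.0 (37.0 with the authors' values) and DYRK1A at 46.7 (43.5 with the authors' values). None of the 8 genes was called lower under any of these scalings.

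Differences across all genes varied with transcript length and level. After a smooth trend on both was removed, 5 kinases were called higher: CLK1 (0.24, limma adjusted p = 0.0363), CLK2 (0.43, 0.00331), CLK3 (0.50, 0.00211), CLK4 (0.32, 0.00959) and PRPF4B (0.20, 0.0471). SRPK2 stood at 0.13, SRPK1 at -0.12 and DYRK1A at -0.20, none of them called. Of all genes, 20.5% were called higher and 18.1% lower after trend removal.

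**Figure D3:**
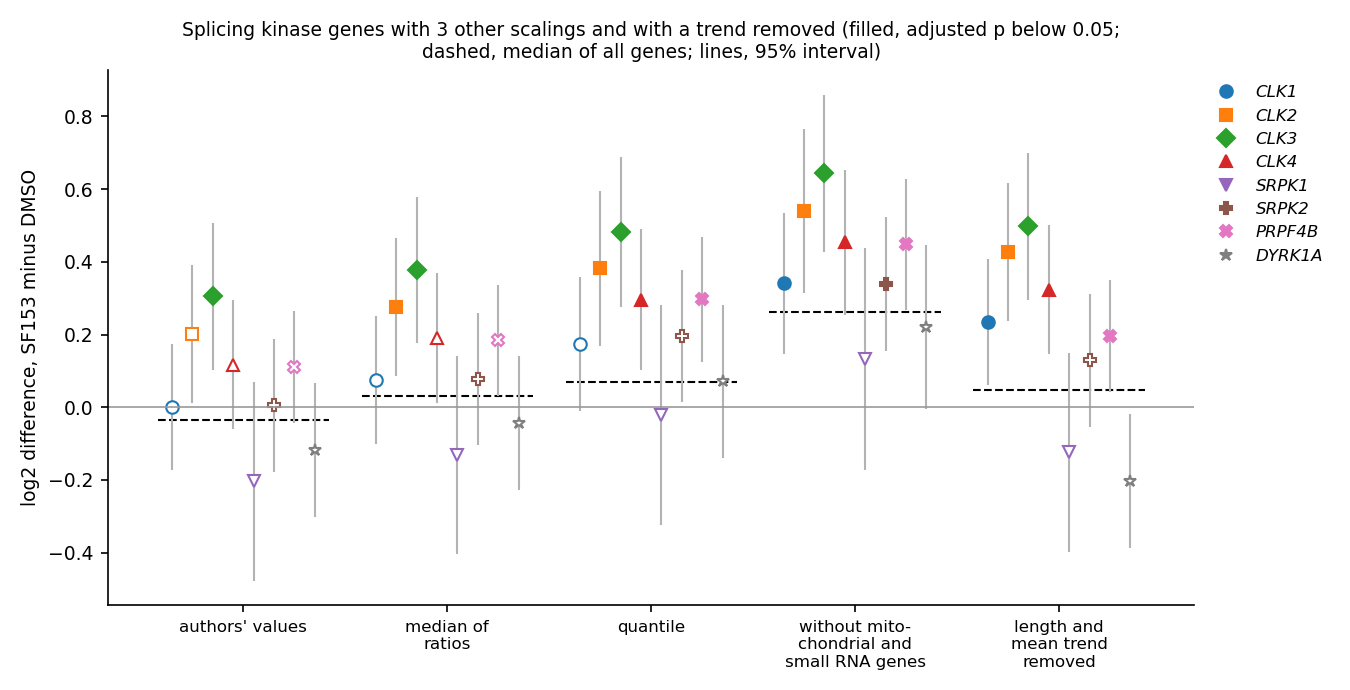
Log2 difference (SF153 minus DMSO) of each splicing kinase gene with the authors' values, under 3 other scalings between libraries and after removal of a trend on transcript length and mean level; markers are filled where the limma adjusted p is below 0.05, vertical lines are 95% intervals and dashed lines the median of all genes. CLK3 is filled in all 5 columns, the 4 CLKs lie above SRPK1 and DYRK1A in each, and the dashed line itself moves from -0.03 to 0.26.

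Other genes of the phosphorylation cycle were set beside the kinases, in lists chosen with earlier results of these data known. Kinases related to the CLKs and SRPKs by sequence family were SRPK3, the remaining DYRKs, the HIPKs and transcription-linked CDKs. Of 14 tested, 3 were higher and 1 lower, where 13% of all genes were higher and 24.3% lower. The median log2 difference of this list was -0.10 against -0.03 for all genes. Without mitochondrial and small RNA genes 5 were called higher and 0 lower, where 35% of all genes were higher and 13.8% lower, and the list median of 0.19 lay below the 0.26 of all genes. CDK12, which phosphorylates RNA polymerase II and carries an RS domain of its own, had 80.4 ± 3.63 in SF153 and 66.7 ± 4.53 in DMSO (log2 difference 0.27, limma adjusted p = 0.016), a call lost within either batch alone and with libraries averaged by treatment and batch. CDK11A had 72.4 ± 3.19 in SF153 and 55.7 ± 2.19 in DMSO (0.37, limma adjusted p = 0.00188), a call lost in batch 2 alone (0.34, limma adjusted p = 0.059). CDK11A has a near-identical copy, CDK11B, and how reads were split is uncertain; CDK11B, named for this after its values were seen, had 11.7 ± 2.14 in SF153 and 14.1 ± 1.22 in DMSO. CDK10 had a log2 difference of 0.22 (limma adjusted p = 0.0451), a call kept only without SF153 1.1 among the 8 fits that left out 1 library (0.19 to 0.28), and lost in batch 1 alone (0.13, against 0.31 in batch 2 alone) and with averaged libraries. HIPK1, a nuclear kinase of the same group, fell to 13.0 ± 0.46 in SF153, against 19.2 ± 0.83 in DMSO (-0.52, limma adjusted p = 0.000904), and was not called without mitochondrial and small RNA genes (-0.20) or in batch 2 alone.

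The SR proteins and TRA2 proteins, the main substrates, had 6 of 13 genes lower and 0 higher with the authors' values, where 24.3% of all genes were lower and 13% higher, but more higher than lower after quantile normalization, without mitochondrial and small RNA genes and after trend removal. The list median was -0.27 with the authors' values, against -0.03 for all genes. After quantile normalization 5 were higher and 2 lower (20.8% and 18.1% of all genes), with a median of 0.09 against 0.07 for all genes. Without mitochondrial and small RNA genes 3 were higher and 1 lower (35% and 13.8% of all genes), and the median of 0.07 still lay below the 0.26 of all genes. With the trend removed, 5 genes of the list were called higher and 1 lower (20.5% and 18.1% of all genes), with a median of 0.14 against 0.05 for all genes. SRSF3, the smallest SR protein, fell to 88.8 to 109.4 across the SF153 libraries, against 203.4 to 232.3 across the DMSO libraries (log2 difference -1.12, limma adjusted p = 3.74e-05), and was called lower under each scaling and after trend removal. SRSF9 fell to 82.7 ± 5.30 in SF153, against 117.9 ± 6.10 in DMSO (-0.51, limma adjusted p = 0.000545), but was not called without mitochondrial and small RNA genes (-0.17) or after trend removal (-0.15). SRSF8, a copy of SRSF2 that may share its reads, had 8.69 ± 1.95 in SF153 and 13.3 ± 3.12 in DMSO (-0.56, limma adjusted p = 0.0447), a call lost in 6 of 8 fits that left out 1 library (without SF153 1.1, 2.1 or 2.2 or DMSO 1.1, 1.2 or 2.2) and under all 3 other scalings.

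Of 9 genes for phosphatases, their nuclear subunits and SR protein or mRNA transport, 7 were lower and 1 higher, where 24.3% of all genes were lower and 13% higher, with a median of -0.74 against -0.03 for all genes. With the 3 other scalings and trend removal 6 or 7 were lower and 1 higher, where 13.8% to 21.2% of all genes were lower and 16.5% to 35% higher. PPP1CA, the alpha catalytic subunit of PP1, fell to 33.4 ± 8.62 in SF153, against 96.95 ± 8.63 in DMSO (log2 difference -1.54, limma adjusted p = 0.000115). The other PP1 catalytic subunits, named after their values were seen, fell as well, PPP1CB by 0.74 and PPP1CC by 0.65 on the log2 scale. PPM1G, a metal-dependent phosphatase that associates with the spliceosome, fell to 16.2 ± 0.97 in SF153, against 41.2 ± 5.03 in DMSO (-1.29, limma adjusted p = 3.4e-05). PPP2CA, a catalytic subunit of PP2A, fell to 27.8 ± 5.401 in SF153, against 63.1 ± 4.15 in DMSO (-1.17, limma adjusted p = 0.000152). PPP1CA, PPM1G and PPP2CA were called lower in each alternative run. NXF1, the mRNA export receptor, had 119.3 to 144.4 in the SF153 libraries and 103.0 to 124.4 in the DMSO libraries (0.26, limma adjusted p = 0.0438), a call lost without SF153 1.2, 2.1 or 2.2 or DMSO 1.2, 2.1 or 2.2 (0.21 to 0.28). The NXF1 difference was 0.0881 in batch 1 alone (limma adjusted p = 0.558) and 0.42 in batch 2 alone (0.0146), and the call was lost with libraries averaged by treatment and batch (0.26, limma adjusted p = 0.178).

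Partners and further substrates of the kinases were 8 lower and 3 higher of 13, where 24.3% of all genes were lower and 13% higher, with a median of -0.39 against -0.03 for all genes. Without mitochondrial and small RNA genes 4 were lower and 3 higher (13.8% and 35% of all genes), and after trend removal 3 were lower and 3 higher, near the 18.1% and 20.5% of all genes. AHSA1, an HSP90 co-chaperone that binds SRPK1, fell to 25.3 ± 5.53 in SF153, against 58.9 ± 9.40 in DMSO (log2 difference -1.20, limma adjusted p = 0.000532). DNAJC8, a J-domain protein that also binds SRPK1, had a log2 difference of -0.71 and was not called after trend removal (-0.36). PRPF6, a tri-snRNP protein phosphorylated by PRPF4B, fell to 13.8 ± 1.10 in SF153, against 23.2 ± 1.10 in DMSO (-0.72, limma adjusted p = 0.000246). SNRNP70, the RS-domain protein of U1 snRNP, rose to 256.3 ± 10.9 in SF153, against 190.3 ± 9.94 in DMSO (0.43, limma adjusted p = 0.000857). ACIN1, the SRPK2 substrate acinus, had a log2 difference of 0.24, a call lost without DMSO 1.1 (0.21), in batch 2 alone (0.17, limma adjusted p = 0.0836) and with libraries averaged by treatment and batch (0.24, limma adjusted p = 0.1825). SAFB2, a matrix attachment factor, had one of 0.20, a call kept only without DMSO 2.1 among the 8 fits that left out 1 library (0.15 to 0.23), and lost in each batch alone and with averaged libraries.

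**Figure D4:**
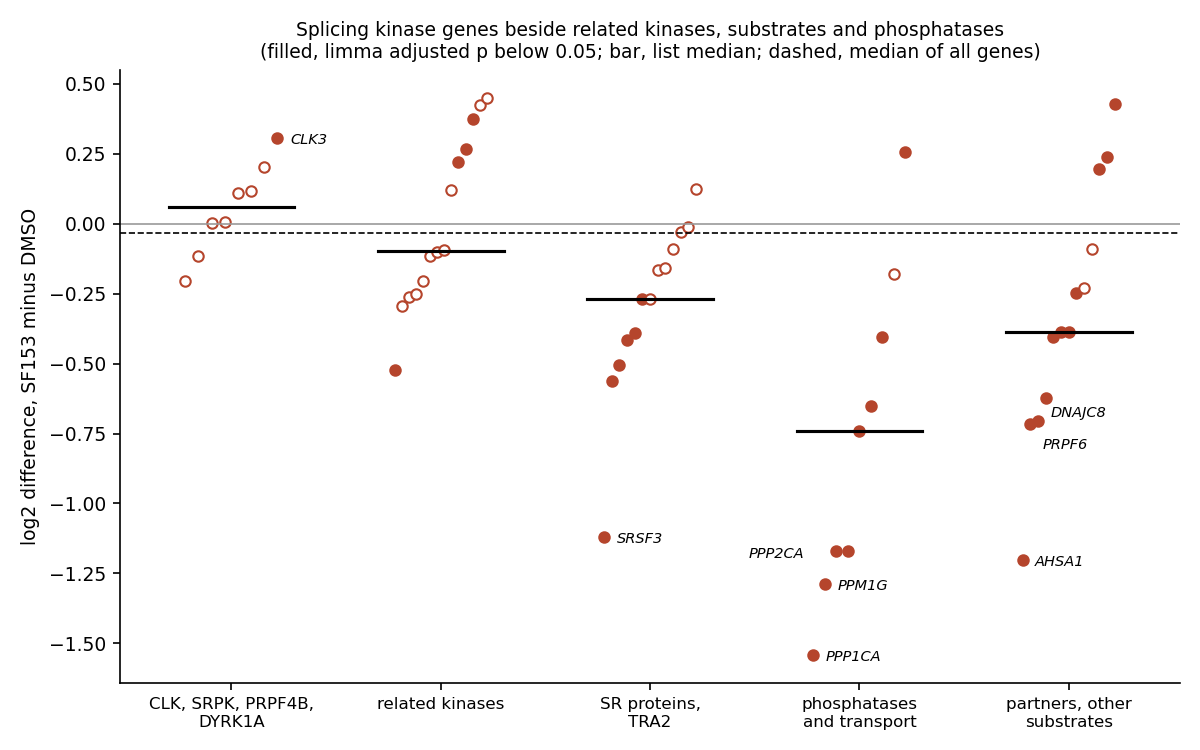
Log2 differences (SF153 minus DMSO, authors' values) of the 8 splicing kinase genes and of 4 lists of related genes; each point is a gene, filled where the limma adjusted p is below 0.05, bars are list medians and the dashed line the median of all genes. The kinases spread from -0.20 to 0.31 around a median of 0.06, whereas the phosphatase and transport list reaches -1.54 for PPP1CA with a median of -0.74.

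Across the 8 libraries the kinases varied in part together and in part apart, with Pearson's r between pairs from -0.64 to 0.66. Among the CLKs, Pearson's r on log2(signal + 1) was 0.66 for CLK2 with CLK4, 0.61 for CLK3 with CLK4 and 0.58 for CLK2 with CLK3, but 0.18 for CLK1 with CLK4. SRPK1 with SRPK2 had 0.31 and SRPK1 with DYRK1A 0.51. The most negative values were -0.64 for CLK4 with SRPK2 and -0.63 for CLK3 with DYRK1A. These are descriptions over 8 libraries of 2 treatments, which share their scaling and treatment. By the same measure over 10197 other genes, the genes most like CLK1 were MED13L (0.96) and METTL21AP1 (0.94), those most like CLK2 GPR141 and MAP3K6 (0.96 each), and those most like CLK3 KLF7 (0.98) and VAMP1 (0.97). CLK4 was followed most closely by KLHL9 and PCMTD1 (0.95 each), SRPK1 by PPP4R3B (0.96) and SRRD (0.95), and SRPK2 by DTNA and DNAJB4 (0.95 each). PRPF4B was nearest to TMEM65 and ZNF248 (0.95 each) and DYRK1A to POLQ and TUBGCP3 (0.97 each). Of these 16 genes only MAP3K6, KLF7 and SRRD were called between treatments.

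The promoter windows of CLK3 and SRPK1 are shown because these genes had the highest and the lowest difference. Each holds 250 bases before and 50 after a RefSeq start, on GRCh38.p14, and RefSeq windows were matched for 7 of the 8 genes. Capitals mark any match, on either strand, to CCGGAAG (an ETS core), TGACG (the core of a cyclic AMP response element), CACGTG (an E box) or GGGCGG (a GC box).
CLK3 (chr15:74615586-74615885, plus strand): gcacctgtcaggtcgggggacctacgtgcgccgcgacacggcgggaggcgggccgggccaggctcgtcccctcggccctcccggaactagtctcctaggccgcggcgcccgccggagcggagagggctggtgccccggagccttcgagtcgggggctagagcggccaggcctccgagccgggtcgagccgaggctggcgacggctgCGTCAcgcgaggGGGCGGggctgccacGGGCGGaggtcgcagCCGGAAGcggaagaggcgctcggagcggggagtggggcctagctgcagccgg
SRPK1 (chr6:35921049-35921348, minus strand): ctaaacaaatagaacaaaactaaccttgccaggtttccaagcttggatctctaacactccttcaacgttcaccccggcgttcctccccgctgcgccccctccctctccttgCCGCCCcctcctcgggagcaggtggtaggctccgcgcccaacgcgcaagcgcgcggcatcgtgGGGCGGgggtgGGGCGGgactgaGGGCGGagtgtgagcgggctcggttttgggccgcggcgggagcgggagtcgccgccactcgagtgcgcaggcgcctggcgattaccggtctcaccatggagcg
The CLK3 window held 1 ETS core, 1 cyclic AMP core and 2 GC boxes, and the SRPK1 window 4 GC boxes and none of the other motifs. Of the 35116 windows in the RefSeq table, 10.3% held the ETS core, 24.6% the cyclic AMP core, 7.26% the E box and 45% the GC box. A match is a description of letters only, and binding was not measured.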

How the data were processed

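RNA sequencing libraries of NKM-1 cells, 4 with SF153 and 4 with DMSO, were compared. The authors deposited a gene-level signal in tables named as both CPM and TPM. Per the submitters' processing notes, the tools were CASAVA (1.8.2), STAR, Salmon and edgeR and the build GRCh38, with no roles stated. Depth is unknown. The plan assumed a TPM-type table, and its log-scale test was kept for the signal. Among the 8 value columns, 4 had a spelling that departed from the labels and were assigned through the numbers in their names; 0 were left unused.

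The members and the gene lists were chosen with earlier results of these data known. With R 4.3.3 and limma 3.58.1, log2(signal + 1) was fitted for genes reaching a mean of 1, with a variance trend on intensity, no batch term and Benjamini-Hochberg adjustment over 15542 genes. The fit was also run on simulated data, where some of the changes put in were not called and some unchanged genes were. Fold changes on this scale understate those of low genes. Paralog ratios were tested by exact permutation. All members were named, and in each list up to 3 called genes with the largest rise and up to 3 with the largest fall; for each member, the 2 genes with the highest correlation and a mean signal of at least 5. Positions and lengths come from GENCODE release 29, which matched 17235 of 17912 genes.

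Batch, as labelled, pairs the libraries of both treatments. Between treatments, same-batch libraries deviated from their group means with an average r of 0.026 across genes, which are not independent. Other settings tried were the pseudocount, the filter, scaling, variance trend, batch, transcript length and leaving out each library.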

Additional observations from a re-analysis of the deposited data

Results flagged for a closer look

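CLK1 in DMSO library 1.2 stood apart from the other DMSO libraries, with a signal of 100.01 against 88.1, 88.6 and 89.5. Its gap to the nearest library took 0.879 of the group's range, above the 95% critical value of Dixon's test for 4 samples. Of 56 groups of 4 libraries examined in this way, 1 was past that value, and chance flags about 1 in 20 groups. Without DMSO 1.2 the log2 difference of CLK1 was 0.04.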

How the results depend on the processing

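The count of splicing kinase genes called higher was 1 with the authors' values. It was 2 with median-of-ratios scaling, 4 with quantile normalization, 6 without mitochondrial and small RNA genes and 5 with the trend on length and mean level removed. It was 0 with libraries averaged by treatment and batch, 0 in batch 1 alone and 0 in batch 2 alone, where fewer samples were fitted. With 1 library left out it was 0 to 1. No kinase gene was called lower in any of the 23 alternatives. The count over all genes was 5785, and it was 3429 with averaged libraries, 3131 in batch 1 alone, 3315 in batch 2 alone and 4872 to 5371 with 1 library left out. With batch as a replicate block, the paired fit called 5943 genes and changed no call among the kinases. The 3 paralog ratios kept a negative sign in each of their 13 alternatives. With so few libraries, the fits on 1 batch, on averaged libraries and permuted within batches could not have passed the threshold. In the other runs, as in the main test, no ratio could have passed by itself after adjustment.

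Signs turned for 4 genes, none of them called with the authors' values. CLK1 was -0.086 in batch 1 alone, -0.0443 with only the SF153 libraries of batch 1 and -0.0257 to 0.0526 with 1 library left out, where it was below 0 without SF153 1.2 (-0.0193), 2.1 (-0.00197) or 2.2 (-0.0257) or DMSO 1.1 (-0.0135), 2.1 (-0.01635) or 2.2 (-0.00865). SRPK2 was -0.0758 in batch 2 alone, -0.0533 with only the SF153 libraries of batch 2 and -0.029 to 0.0629 with 1 library left out, where it was below 0 without SF153 1.1 (-0.029), 1.2 (-0.000169) or 2.2 (-0.0144) or DMSO 1.1 (-0.0046), 1.2 (-0.000694) or 2.2 (-0.0098). SRPK1 was 0.13 without mitochondrial and small RNA genes, and DYRK1A was 0.0714 with quantile normalization and 0.22 without those genes. These scalings moved the median of all genes too, to 0.07 with quantile normalization and 0.26 without those genes. SRPK1 lay below that median without those genes, as DYRK1A did, and DYRK1A stood at a percentile of 50.3 with quantile normalization. The cause of the turned sign was not tested for any of the 4 genes. The fits with the SF153 libraries of 1 batch and all DMSO libraries, and the interaction fit, were chosen after seeing the data. Depth is unknown, so no counting error can be given.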
